A study of Rattus norvegicus with 18 samples.

Results

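A set of 46 genes, of 32754 in the count table, had fewer reads in the mucosa of spinal cord-injured rats given vehicle than in the mucosa of both uninjured rats and injured rats given inosine. The set was defined by its values in CPM, a gene's count per 1000000 counts of its library. A member had a mean above 5 CPM in Control mucosa, its highest SCI-vehicle mucosa library lay below the lowest of the 6 Control and SCI-inosine mucosa libraries, and the Control and SCI-inosine means were each at least 1.3 times the SCI-vehicle mean. In detrusor, the Control and SCI-vehicle ranges had to overlap, and the Control means of the 2 tissues had to lie within 16-fold of each other with 0.5 CPM added to each. The higher level in SCI-inosine mucosa than in SCI-vehicle mucosa was therefore built into the selection and is not a result. All 46 members are among the 15740 genes that passed the filter on low values.

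Bulk RNA-seq was run on bladders of male wild-type Sprague Dawley rats that were 6 to 7 weeks old at surgery. Spinal cord injury (SCI) was a complete transection at thoracic level T8, and injured rats then were injected intraperitoneally for 8 weeks with inosine, 225 mg/kg daily (SCI-inosine), or with vehicle, 12 mM sodium bicarbonate (SCI-vehicle). Control rats were uninjured and untreated, so injury and vehicle injection cannot be told apart in the difference between SCI-vehicle and Control, and no uninjured rats given inosine were measured. There were 18 libraries, 3 of each tissue in each of the 3 groups. The labels do not say whether a mucosa and a detrusor library with the same replicate number come from the same rat, and p-values measure only the spread between these libraries.

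The bladder mucosa consists of the urothelium, the epithelium that lines the lumen and seals it against urine, and the lamina propria beneath it, a connective tissue with fibroblasts, vessels, nerves and immune cells. The detrusor is the smooth muscle that contracts to empty the bladder, and after spinal cord transection it loses control from the brainstem and works against an uncoordinated outlet. Inosine is the nucleoside that adenosine deaminase makes from adenosine, and cells degrade it further to hypoxanthine and uric acid.

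Total counts ranged from 3255012 to 6810496 per library, with a median of 5030414. SCI-inosine detrusor replicate 2 had counts on 14126 genes and the other detrusor libraries on 16475 to 17842 genes. SCI-vehicle detrusor replicate 1 had 3.45% of its counts on mucosa-enriched genes, whose Control mucosa level exceeds the Control detrusor level more than 4-fold, against 1.26% to 2.49% in the other detrusor libraries. Counts of members in detrusor are given with and without these libraries where the count changes by more than 1.5 times or the majority turns. The genes are listed by Ensembl rat identifier without gene names, so the tissue labels were not checked against cell type markers and the functions of the members are not described. Members are called here by their rank, from 1 for the highest to 46 for the lowest mean CPM in Control mucosa. CPM is not divided by gene length, so the rank orders read counts and not transcript numbers. In bulk tissue, fewer cells of a type and less RNA per cell cannot be told apart.

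Few genes met the conditions, and many lay close to the limits. A mean above 5 CPM in Control mucosa was found for 11805 genes, and 124 of these had all SCI-vehicle mucosa libraries below the other 6. Taken alone, all SCI-vehicle libraries were below all Control libraries in 5.94% of the 15740 genes tested, and all SCI-inosine libraries were above all SCI-vehicle libraries in 3.07%. The opposite directions were more frequent in CPM. All SCI-vehicle libraries were above all Control libraries in 11.0%, and all SCI-inosine libraries were below all SCI-vehicle libraries in 8.06%. The limits on the Control and SCI-inosine means left 85 and then 65 genes, the overlap in detrusor left 46, and the 16-fold limit removed 0. The member nearest the limit of the separation was rank 25, whose lowest Control or SCI-inosine value was 1.00 times its highest SCI-vehicle value (18.2 CPM for each), and the nearest gene outside had a ratio of 0.999. A further 208 genes failed only this separation. The smallest Control to SCI-vehicle ratio inside was 1.304 (rank 19) and the nearest outside was 1.273. For SCI-inosine to SCI-vehicle, the nearest ratios were 1.3004 inside (rank 24) and 1.297 outside. The member of lowest level, rank 46, had 5.00 CPM in Control mucosa, and the nearest gene below the limit had 4.56 CPM.

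In mucosa, SCI-vehicle means ranged from 26.4% to 76.7% of the Control mean over the 46 members, with a median of 64.0%, and 8 members lay under 50%. SCI-inosine means ranged from 63.0% to 140.9% of Control, with a median of 94.5%. The median Control mean over the members was 28.1 CPM, against 14.4 CPM in SCI-vehicle and 23.2 CPM in SCI-inosine. Most members were of moderate or low count, with 10 above 100 CPM, 24 from 10 to 100 CPM and 12 at 10 CPM or less in Control mucosa, and their counts in the SCI-vehicle mucosa libraries ranged from 5 to 3890 reads. The 5 members of highest CPM held 69.5% of the summed member CPM in Control mucosa. Together the 46 members had 5351, 5444 and 4753 CPM in the Control mucosa libraries, 3075, 3112 and 3169 CPM in SCI-vehicle, and 4654, 4794 and 4822 CPM in SCI-inosine. Without the top 5, the sums were 1580, 1602 and 1558 CPM, then 987, 945 and 951 CPM, then 1318, 1548 and 1564 CPM. The sum was thus lower in SCI-vehicle with and without its leading genes, as the selection of each member requires.

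**Figure D1:**
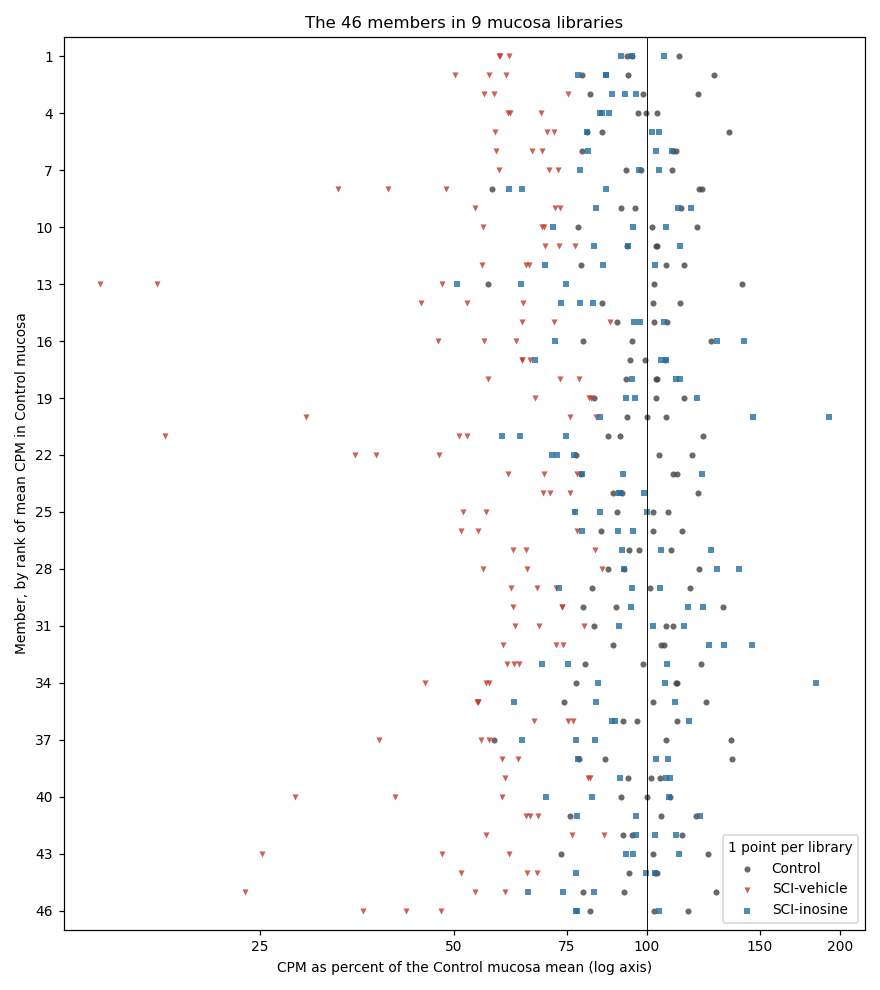
Level of each of the 46 members (vertical axis, by rank of mean CPM in Control mucosa) in the 9 mucosa libraries, as percent of the member's Control mucosa mean on a log axis, with 1 point per library. All SCI-vehicle points of a member lie to the left of its Control and SCI-inosine points, which the selection fixes, and the distance between them runs from almost none (rank 25) to a ratio of 1.62 (rank 46).

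The member with the most reads, ENSRNOG00000014288 (rank 1), had 1492, 1238 and 1259 CPM in Control mucosa, 784, 782 and 811 CPM in SCI-vehicle mucosa, and 1414, 1261 and 1211 CPM in SCI-inosine mucosa. The 3 SCI-vehicle libraries lay close together and far below the other 6, whose values were interleaved. Its means were 1329 ± 141 CPM in Control, against 792 ± 16.2 CPM in SCI-vehicle and 1295 ± 105 CPM in SCI-inosine (SD, n = 3 each), so SCI-vehicle stood at 59.6% of Control and SCI-inosine at 97.4%. Rank 2 had 1009, 1374 and 854 CPM in Control, against 542, 650 and 614 CPM in SCI-vehicle, and 844, 933 and 933 CPM in SCI-inosine. Here the Control libraries were spread widely, and the SCI-inosine mean was 83.7% of Control. Rank 4 had 452, 439 and 469 CPM in Control, against 310, 275 and 277 CPM in SCI-vehicle, and 383, 395 and 386 CPM in SCI-inosine. In this member the 3 groups did not overlap, and SCI-inosine lay between the other two. Ranks 3, 5, 6, 7 and 8 complete the 8 members of highest CPM, with SCI-vehicle at 63.0%, 66.6%, 64.4%, 67.3% and 40.4% of Control.

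The widest gap between the groups belonged to the member with the fewest reads. ENSRNOG00000016623 (rank 46) had 5.79, 4.08 and 5.14 CPM in Control mucosa, 2.40, 1.81 and 2.11 CPM in SCI-vehicle, and 3.90, 5.22 and 3.89 CPM in SCI-inosine. Its lowest Control or SCI-inosine value was 1.62 times its highest SCI-vehicle value, but these were 16 and 10 reads. Rank 22 had the next gap, 1.502 times, with 32.8, 36.9 and 24.4 CPM in Control, against 11.0, 14.9 and 11.9 CPM in SCI-vehicle, and 24.2, 22.7 and 22.4 CPM in SCI-inosine. The SCI-inosine libraries of rank 22 all lay just below its lowest Control library. Ranks 1, 34, 2, 4, 43 and 32 followed, with gaps of 1.49, 1.37, 1.298, 1.23, 1.20 and 1.196 times. Over the 46 members the gap ranged from 1.00 to 1.62 times with a median of 1.11, and it was under 1.1 in 22 members. Exact 95% Poisson intervals of the counts behind the 2 closest libraries, which cover counting error only, were apart for 3 members (ranks 1, 2 and 4). For the other members these intervals overlapped.

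The lowest SCI-vehicle level relative to Control was that of rank 13, with 61.1, 83.8 and 33.7 CPM in Control mucosa, 8.38, 28.6 and 10.3 CPM in SCI-vehicle, and 30.2, 44.5 and 37.9 CPM in SCI-inosine. SCI-vehicle was 26.4% of Control and SCI-inosine 63.0%, the lowest SCI-inosine share among the members, and the Control libraries of this gene differed widely from each other. Ranks 8, 21 and 22 followed, with SCI-vehicle at 40.4%, 40.4% and 40.2% of Control and SCI-inosine at 70.4%, 65.9% and 73.6%. In rank 8 the Control libraries had 164, 77.9 and 166 CPM, the SCI-vehicle libraries 53.7, 44.8 and 66.0 CPM, and the SCI-inosine libraries 86.9, 82.9 and 117 CPM. The SCI-inosine libraries of rank 8 all lay between its low Control library and its other Control libraries. The other 4 members with SCI-vehicle under 50% of Control were ranks 40, 43, 45 and 46, all at 10 CPM or less in Control mucosa.

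How closely SCI-inosine approached Control differed between members. SCI-inosine means lay below the Control mean in 32 members (51.2% of the genes tested) and above it in 14 (48.7%), and 24 members were within 10% of Control. Every SCI-inosine mucosa library was below every Control mucosa library in 4 members (ranks 4, 14, 21 and 22, named after their values were seen), where 6% of the 15740 genes tested were. The share of members is near that of all genes and is not a result about the members. Rank 32 was the 1 member with every SCI-inosine library above every Control library (4.21% of the genes tested), at 18.7, 16.9 and 16.0 CPM against 13.5, 11.4 and 13.6 CPM, with 7.67, 9.25 and 9.50 CPM in SCI-vehicle. The largest SCI-inosine share of Control, 140.9%, was that of rank 20, with 73.3, 55.9 and 32.3 CPM against 35.6, 38.2 and 40.9 CPM in Control and 31.9, 11.3 and 29.0 CPM in SCI-vehicle. Its SCI-inosine libraries ranged from below to well above its Control libraries. These values come from libraries that chose the members, so no test is given.

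SCI-inosine mucosa replicate 1 stood lower than its group. It was the lowest SCI-inosine library in 29 of 46 members (63.0%, against 39.8% of the 11805 genes above 5 CPM) and the lowest of all 6 Control and SCI-inosine libraries in 19. The selection used these libraries, and the 11805 genes were not asked to meet its other conditions, so this is a description. The median of the members' log2 ratios to the Control mean (0.5 CPM added) was -0.25 in this library, against -0.04 and -0.06 in SCI-inosine replicates 2 and 3. The SCI-vehicle libraries had -0.62, -0.69 and -0.68, and the Control libraries 0.01, 0.01 and 0.03. Over all genes tested the same medians lay between -0.04 and 0.07 in the 9 mucosa libraries. Without SCI-inosine mucosa replicate 1 the selection would have returned 129 genes, 44 of them members. For SCI-vehicle mucosa, 207 genes (41 members) met the conditions without replicate 3, 89 without replicate 1 and 80 without replicate 2. The separation is easier to meet with any mucosa library left out, so a longer list follows in part from the conditions. The list held 49 to 63 genes without a Control mucosa library and 50 without SCI-inosine mucosa replicate 2 or 3.

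**Figure D2:**
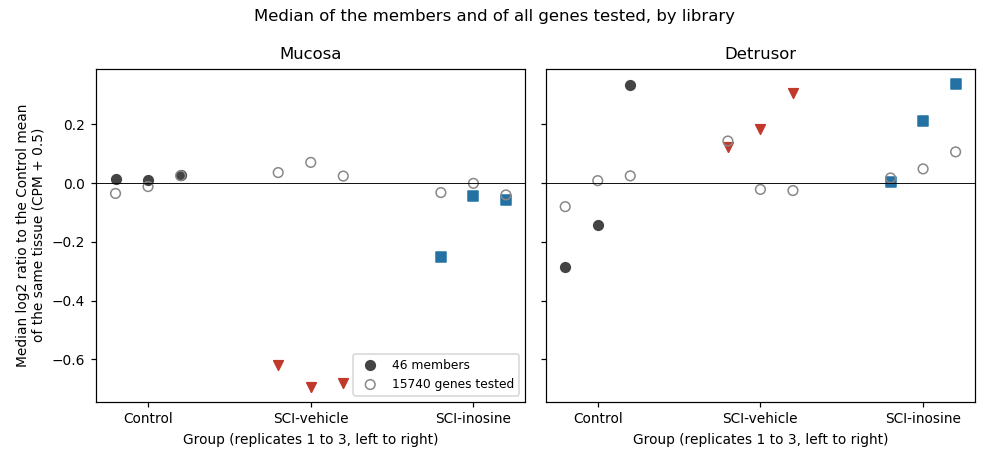
Median over the 46 members (filled symbols) and over all 15740 genes tested (open circles) of the log2 ratio to the Control mean of the same tissue, 1 point per library, replicates 1 to 3 from left to right. In mucosa the members of the SCI-vehicle libraries lie between -0.69 and -0.62 by selection, and in detrusor the injured groups lie between 0.00 and 0.34 with Control replicate 3 among them.

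The make-up of the mucosa libraries also differed between SCI-vehicle and the other groups, and the selection had fixed the members low in SCI-vehicle. Outside SCI-vehicle, Control replicate 1 and SCI-inosine replicate 1 had the highest shares of counts on the 50 most abundant other genes, 17.3% and 17.0%. The members' median log2 ratios in these libraries were 0.01 and -0.25. Control replicates 2 and 3, with shares of 15.7% and 15.8%, had medians of 0.01 and 0.03. These 50 genes were those of highest mean CPM over all 18 libraries of both tissues, with the members left out. In SCI-vehicle mucosa they took 15.2%, 13.2% and 15.0% of counts. Those shares lay below the 17.3%, 15.7% and 15.8% in Control and the 17.0%, 15.6% and 16.6% in SCI-inosine. In the detrusor libraries the same 50 genes took 26.9% to 32.8% of counts. The 1652 mucosa-enriched genes took 11.8%, 12.8% and 12.5% of counts in SCI-vehicle mucosa, above the 11.3% to 11.6% in the Control and SCI-inosine mucosa libraries. The 443 detrusor-enriched genes, selected by the same 4-fold limit the other way, took 4.89%, 1.48% and 2.20% in Control mucosa, 4.91%, 3.12% and 2.24% in SCI-vehicle and 7.21%, 2.77% and 3.93% in SCI-inosine. The largest of these shares was in SCI-inosine mucosa replicate 1, the library in which most members were lowest of their group. The part of these shares in the members' levels was not tested. With library sizes scaled by edgeR's trimmed mean of M values (TMM) in place of total counts, 96 genes met the conditions, 43 of them members, and with DESeq2's size factors 91 genes did, again with 43 members.

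**Figure D3:**
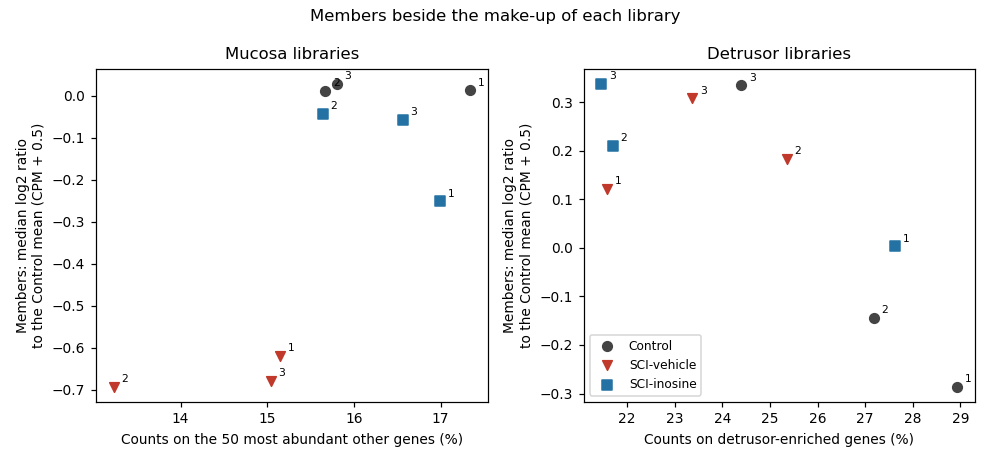
Median log2 ratio of the 46 members to the Control mean of the tissue (vertical axis) against a share of counts, with the replicate number beside each point. For the 9 mucosa libraries (left) it is the percent on the 50 other genes of highest mean CPM over all 18 libraries. For the 9 detrusor libraries (right) it is the percent on detrusor-enriched genes. The SCI-vehicle mucosa libraries have the lowest shares, 13.2% to 15.2%, and, by selection, the lowest medians. The detrusor libraries with the 3 highest shares, 27.2% to 28.9%, have the 3 lowest medians.

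Across all 15740 genes, edgeR's quasi-likelihood test called 0 genes between SCI-vehicle and Control mucosa at an adjusted p-value under 0.05 (1611 at an unadjusted p-value under 0.05, 10.2% of those tested, and 81 by DESeq2 with adjustment). Between SCI-inosine and SCI-vehicle mucosa it called 1 gene (0.00635%), which is no member. The members' median log2 fold change in these fits was -0.71 for SCI-vehicle against Control and 0.65 for SCI-inosine against SCI-vehicle, with 0.00 over all genes tested in both, and these values restate the selection.

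The members were not mostly genes of higher CPM in mucosa. In Control rats, 20 members had a higher mean CPM in mucosa and 26 in detrusor, and the ratio of mucosa to detrusor (0.5 CPM added) ranged from 0.142 to 10.7 with a median of 0.824. More than 4-fold differences were found in 8 members, 6 higher in mucosa (ranks 8, 13, 19, 30, 31 and 43) and 2 higher in detrusor (ranks 32 and 45). Of the 15740 genes tested, 1652 outside the members were more than 4-fold higher in mucosa and 443 in detrusor. No 16-fold limit applied to those genes. The median SCI-vehicle mucosa level was 61.8% of Control for the 20 members higher in mucosa and 65.4% for the 26 higher in detrusor. Rank 43, with the highest ratio, had 6.43, 4.62 and 7.82 CPM in Control mucosa, 3.83, 3.02 and 1.58 CPM in SCI-vehicle mucosa and 5.98, 7.07 and 5.83 CPM in SCI-inosine mucosa, and its 9 detrusor libraries lay between 0 and 0.786 CPM. With the lower SCI-vehicle values in mucosa, the number of members higher in mucosa than in detrusor was 11 of 46 in SCI-vehicle and 16 of 46 in SCI-inosine. The shares of all genes tested with a higher mean in mucosa were not computed, so these splits describe the members only.

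In detrusor the Control and SCI-vehicle libraries of each member overlapped, as the selection required. For some members this overlap rested on 1 library. Without SCI-vehicle detrusor replicate 1, SCI-vehicle lay wholly above Control in 10 members (14.4% of the genes tested) and wholly below in 1 (16.2%). Without Control detrusor replicate 3 these counts were 14 (23.2%) and 0 (14.2%). The SCI-vehicle mean was above the Control mean in 37 of 46 members (56.9% of all genes tested). Rank 1 had 2153, 1252 and 2119 CPM in Control detrusor, 1672, 2160 and 2073 CPM in SCI-vehicle and 2985, 1771 and 1797 CPM in SCI-inosine. The 3 groups overlapped. Rank 46 had 5.77, 7.62 and 9.75 CPM in Control detrusor, 6.49, 11.7 and 9.58 CPM in SCI-vehicle and 7.19, 8.90 and 15.8 CPM in SCI-inosine, again with overlap. Summed over the 46 members, the libraries had 6660, 5923 and 9014 CPM in Control, against 7016, 9039 and 10358 CPM in SCI-vehicle and 8431, 10004 and 8534 CPM in SCI-inosine. The highest Control sum lay within the range of both injured groups.

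**Figure D4:**
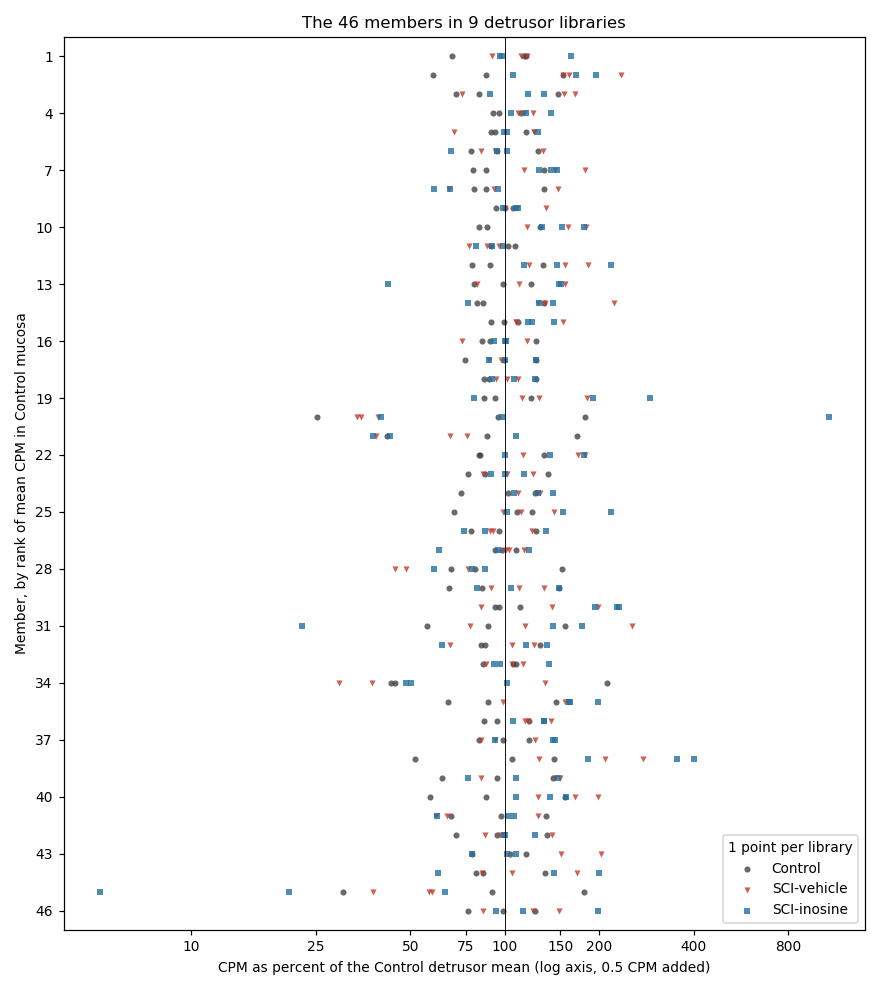
Level of each of the 46 members (vertical axis, by rank of mean CPM in Control mucosa) in the 9 detrusor libraries, as percent of the member's Control detrusor mean on a log axis with 0.5 CPM added, 1 point per library. The groups overlap in most members, and rank 20 in SCI-inosine replicate 2 and rank 45 in SCI-inosine replicate 1 lie farthest from their Control means.

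The SCI-inosine detrusor libraries were not used in the selection, and the members were tested there. The Control and SCI-vehicle detrusor libraries they were compared with were used, since the selection asked these groups to overlap, so the shares of all genes set beside the members' counts come from genes without that condition. Against SCI-vehicle detrusor, edgeR's quasi-likelihood test called 0 of the 46 members and 0 of all 15740 genes at an adjusted p-value under 0.05. At an unadjusted p-value under 0.05 it gave 688 genes (4.37%), among them 1 member (rank 20, which was higher, as were 2.66% of all genes). Without SCI-vehicle detrusor replicate 1 it gave 721 genes, among them 1 member higher and 2 lower. Without SCI-inosine detrusor replicate 2 it gave 602 genes and 0 members. With adjustment, DESeq2 called 10 genes and 0 members. The members' log2 fold changes ranged from -1.73 to 3.40 with a median of -0.05, where the median over all genes tested was -0.03. By mean CPM, 27 members were higher in SCI-inosine (53.7% of all genes tested), but by the TMM-scaled fit 14 were above 0 and 32 below, where 45.8% of all genes were above 0. Leaving out a library also turned the majority or left an even split. By mean CPM, 17 members were higher without SCI-vehicle detrusor replicate 1, and by the fit 24, 25 and 23 members were above 0 without SCI-vehicle replicate 2, SCI-vehicle replicate 3 and SCI-inosine replicate 2. The data thus give no stable direction for the members in this comparison. Every SCI-inosine library lay above every SCI-vehicle library in 2 members (ranks 20 and 35, against 5.59% of the genes tested) and below in 0 (3.34%). Without SCI-vehicle detrusor replicate 1 these counts were 4 (15.4%) and 2 (5.16%), and without SCI-inosine detrusor replicate 2 they were 3 (10.6%) and 1 (6.72%).

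The 2 members with separated groups did so in different ways. Rank 20 had 119, 1315 and 48.8 CPM in SCI-inosine detrusor, 47.8, 42.1 and 40.6 CPM in SCI-vehicle and 115, 30.2 and 219 CPM in Control. Its SCI-inosine mean was set by replicate 2, the library with counts on the fewest genes, and the lowest SCI-inosine value was close to the highest SCI-vehicle value. The log2 fold change was 3.40 (SE 1.03, adjusted p = 0.951), and without SCI-inosine detrusor replicate 2 it was 0.95. Rank 35 had 5.73, 5.68 and 7.17 CPM in SCI-inosine, 5.50, 3.32 and 5.63 CPM in SCI-vehicle and 2.05, 2.92 and 5.12 CPM in Control. All its SCI-inosine values lay above both other groups by narrow margins, with a log2 fold change of 0.31 (SE 0.38, adjusted p = 0.956) against SCI-vehicle. The next smallest unadjusted p-values belonged to ranks 14 and 8, which were lower in SCI-inosine by log2 fold changes of -0.57 (SE 0.28) and -0.51 (SE 0.33), both with an adjusted p of 0.951.

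Against Control detrusor, the same test called 46 of all 15740 genes (0.292%), 30 higher and 16 lower, none of which is a member. At an unadjusted p-value under 0.05 it gave 2145 genes (13.6%), among them 4 members, 3 higher (7.78% of all genes) and 1 lower (5.85%). Without SCI-inosine detrusor replicate 2 it gave 1406 genes, among them 2 members higher and 0 lower. The members' log2 fold changes ranged from -1.90 to 1.88 with a median of 0.08, where the median over all genes tested was -0.01, and 29 members were above 0 (48.8% of all genes). Without single libraries, 23 (without Control replicate 2) to 35 members (without Control replicate 3) were above 0. By mean CPM, 34 members were higher (59.7% of all genes). Every SCI-inosine library lay above every Control library in 5 members (12.6% of the genes tested), which were ranks 10, 15, 30, 35 and 38, named after their values were seen, and below in 0 (5.95%). Without Control detrusor replicate 3 the count was 18 members (23.4%), and without SCI-inosine detrusor replicate 2 it was 8 (18.1%). The 2 comparisons of SCI-inosine detrusor share their SCI-inosine libraries.

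Rank 38 came nearest to the threshold. It had 5.40, 11.5 and 15.8 CPM in Control detrusor, 14.2, 23.4 and 31.0 CPM in SCI-vehicle and 20.6, 40.1 and 45.5 CPM in SCI-inosine. The SCI-inosine libraries were all above Control, and the SCI-vehicle libraries lay between and overlapped both. Its log2 fold change against Control was 1.59 (SE 0.41, adjusted p = 0.166 by edgeR), and the adjusted p ranged from 0.0108 to 0.524 over the alternatives. The gene passed the threshold under 3 of the alternatives, among them DESeq2 (adjusted p = 0.0122) and testing every gene with a count (0.0352). In mucosa the SCI-vehicle mean of the same gene stood at 66.9% of Control and the SCI-inosine mean at 96.5%.

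In rank 45 the difference had the other sign. It had 11.2, 34.6 and 68.0 CPM in Control detrusor, 14.2, 22.0 and 21.6 CPM in SCI-vehicle and 1.47, 7.37 and 24.3 CPM in SCI-inosine. The Control libraries differed by several fold and overlapped both injured groups, and the log2 fold change of SCI-inosine against Control was -1.90 (SE 0.75, adjusted p = 0.318 by edgeR). Rank 30, one of the members more than 4-fold higher in mucosa, had 0.931, 0.973 and 1.22 CPM in Control detrusor, 2.56, 0.791 and 1.67 CPM in SCI-vehicle and 2.50, 3.07 and 3.02 CPM in SCI-inosine. Its log2 fold change against Control was 1.33 (SE 0.56, adjusted p = 0.334 by edgeR), at a level of a few CPM. None of these 3 members is called in detrusor by the test fixed for the comparison.

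The libraries of a detrusor group differed more for the members than for other genes. The median coefficient of variation over the 46 members was 28.6%, 23.5% and 27.6% in the Control, SCI-vehicle and SCI-inosine groups, against 15.9%, 15.6% and 18.9% over the 11805 genes above 5 CPM in Control mucosa. In mucosa the members had 17.4%, 13.9% and 14.6%, against 12.9%, 14.1% and 14.5%, so the SCI-vehicle and SCI-inosine values there were close to those of other genes. The selection used every group here but SCI-inosine detrusor, so these values are a description and were not tested.

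Control detrusor replicate 3 was the highest Control library in 37 of 46 members (80.4%, against 42.7% of the 11805 genes). Control replicate 1 was the lowest in 29 (63.0%, against 45.9%). The selection asked the range of the Control libraries to overlap that of SCI-vehicle, and the 11805 genes carry no such condition. These counts therefore describe libraries that helped to choose the members and were not tested. The median log2 ratios of the members to the Control mean were -0.29, -0.14 and 0.33 in the Control libraries, 0.12, 0.18 and 0.31 in SCI-vehicle and 0.00, 0.21 and 0.34 in SCI-inosine, while those of all genes tested lay between -0.08 and 0.14. The share of counts on the 443 detrusor-enriched genes was 28.9%, 27.2% and 24.4% in Control, against 21.6%, 25.3% and 23.4% in SCI-vehicle and 27.6%, 21.7% and 21.5% in SCI-inosine. The 3 libraries with the highest of these shares, Control replicates 1 and 2 and SCI-inosine replicate 1, had the 3 lowest member medians, and their part in the members' levels was not tested. Without Control detrusor replicate 3, the members' median log2 fold change of SCI-inosine against Control was 0.30 in place of 0.08.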

How the data were processed

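Total RNA was depleted of ribosomal RNA and made into stranded libraries, and both ends were sequenced on 2 flow cells. The authors deposited whole-number counts of reads per gene, summed over both flow cells and not normalized, for 32754 genes in 18 libraries. The submitters' processing notes name Rnor_6.0, FastQC 0.11.9, MultiQC 1.13, Trim Galore 0.6.10, STAR 2.7.10a, SAMtools 1.17 and featureCounts 2.0.3; the strand setting of the counting is not given in the sources used here. All columns were mapped by their labels, 0 were unused, and 0 entries lacked a gene.

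Members were selected on CPM, and the members and lists were chosen with earlier results of these data known. The 15740 genes above 1 CPM in 3 or more of the 18 libraries were tested. Each tissue's 9 libraries went into a single fit by group with edgeR 4.0.16 (TMM, quasi-likelihood F test, two-sided, R 4.3.3), with Benjamini-Hochberg adjustment over all genes tested and a threshold of 0.05. Contrasts that the selection used are given as descriptions. On simulated counts in which 200 of 15740 genes had a log2 change of 2, the detrusor fit recovered 92.0% with 8.46% false calls. The mucosa fit recovered 94.5% with 4.55% false calls. The changed genes had a mean above 5 CPM in the tissue. Smaller changes, such as those of most members, were not simulated, so these shares do not give the recovery for the members. Alternatives were DESeq2 1.42.0, its size factors, edgeR's filterByExpr, every gene with a count, only the 2 groups compared, the replicate number as a block, and leaving out each library.

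Members described singly are the 8 with the highest CPM in Control mucosa, the 8 with the widest gap, the 4 with the lowest SCI-vehicle share of Control, the 3 with the smallest p in each SCI-inosine detrusor comparison and those next to a limit of the selection. At most 2 are given by identifier, because 0 identifiers matched a gene name in the reference tables. For the same reason the marker lists, the gene lists and the promoter and protein sequences were not used here. No pair of libraries within a group was within sampling noise of being the same library, and pairs across groups were not checked.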

Additional observations from a re-analysis of the deposited data

How the results depend on the processing

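Limits: the members were defined by their values, most gaps between groups are within counting error, and 3 libraries per group set the precision. The list held 96 genes with TMM-scaled CPM, 91 with DESeq2 size factors and 17 with limits of 1.5-fold, and from 32 (without Control detrusor replicate 3) to 207 (without SCI-vehicle mucosa replicate 3) when a library was left out. Genes called between SCI-inosine and SCI-vehicle detrusor numbered 10 with DESeq2 and 2 with every gene with a count, against 0, and 0 without any single library. Between SCI-inosine and Control detrusor they numbered 349 with DESeq2, 149 with every gene with a count and 11 with only the 2 groups compared, against 46, and 0 to 100 when a library was left out: 0 without Control replicate 1 or 2 or SCI-inosine replicate 2 or 3, and 100 without SCI-inosine replicate 1. Of the members, 1 (rank 38) was called in this comparison with DESeq2 and with every gene with a count, at log2 fold changes of 1.58 and 1.59, and 0 when a library was left out. In mucosa, DESeq2 called 81 genes for SCI-vehicle against Control, 13 for SCI-inosine against SCI-vehicle and 17 for SCI-inosine against Control, where every gene with a count gave 1. SCI-inosine against SCI-vehicle mucosa had 0 calls with only the 2 groups compared and 0 to 2 when a library was left out, against 1. The cause of these differences was not tested.

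Replicate numbers did not consistently pair the libraries of different groups. Correlations of the deviations of same-numbered libraries ran from -0.13 to 0.25 in detrusor (2 of 9 over 0.1) and from -0.25 to 0.45 in mucosa (5 of 9). Between same-numbered mucosa and detrusor libraries of a group they ran from 0.01 to 0.23, which does not settle whether these came from the same rat. With the replicate block, SCI-inosine against Control detrusor had 75 calls, 35 of them among the 46, and 1 member (rank 38, log2 fold change 1.63, adjusted p = 0.0108), SCI-inosine against SCI-vehicle mucosa had 0, and no other call changed.

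Leaving out a library turned the sign of some detrusor values of the members described, none of them called. Against SCI-vehicle, log2 fold changes ran from -0.25 to 0.25 for rank 1 (-0.05 without SCI-vehicle replicate 1) and from -0.28 to 0.34 for rank 46 (-0.12 without SCI-vehicle replicate 1). Against Control they ran from -0.20 to 0.31 for rank 1 (-0.08 without Control replicate 2), from -0.048 (without SCI-inosine replicate 2) to 0.34 for rank 14 (-0.01 without Control replicate 2), from -0.58 to 2.58 for rank 20 and from -0.037 (without SCI-inosine replicate 3) to 0.54 for rank 46. The counts of members wholly above Control or SCI-vehicle in SCI-inosine detrusor ran from 5 to 18 and from 2 to 4 without single libraries, chosen after seeing the data. The members' median ran from -0.19 to 0.08 against SCI-vehicle and from 0.00 to 0.30 against Control.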
